A study of Mus musculus with 20 samples.

Results

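The genes described here are Cpt1a, Cpt2, Acadm, Acadl, Ehhadh, Pdk4, Vnn1 and Fgf21, a set that acts in, or is switched on together with, fatty acid oxidation and ketone body production in the liver. They were picked out of the 25444 loci of the deposited tables by their symbols. This set and the pathway lists below were chosen with earlier results of these data known. Their shares of called genes are therefore descriptions and not tests. All 8 passed the filter on low counts that kept 13704 genes for testing. Each was measured by RNA-seq in 20 livers, 1 mouse per library, with 5 mice in each of 4 groups: C57BL/6N (B6) females, B6 males, C3H/HeN (C3) females and C3 males. All mice were 20 weeks old, untreated inbred animals without an engineered allele, single-housed, fed ad libitum, and necropsied in the morning. The sexes were housed in different rooms, and the 2 factors, sex and room, cannot be told apart. Liver tumours arise spontaneously far more often in C3 than in B6 mice.

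Long-chain fatty acids are activated to acyl-CoA, passed into mitochondria by the carnitine shuttle, and shortened step by step by beta-oxidation, which starts with the acyl-CoA dehydrogenases. A parallel pathway in peroxisomes handles very long-chain and other acyl-CoA species. In fasting, the acetyl-CoA released in the liver is turned into ketone bodies, pyruvate oxidation is held back, and the hepatokine FGF21 is released. The nuclear receptor PPARalpha, which binds fatty acids, activates many of these genes.

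Total counts per library lay between 27370921 and 46835745, and the libraries were sequenced in 3 pools with 1 or 2 mice of each group in each. Levels are given as CPM, counts scaled to library size after TMM normalization, or as deposited TPM, which is scaled by gene length, where genes are compared. The 8 hepatocyte markers were high in all livers, with a summed level of 112900 to 145100 CPM in B6 females, 97690 to 121900 CPM in B6 males, 155700 to 188300 CPM in C3 females and 131400 to 157800 CPM in C3 males. The sums did not overlap between strains in either sex. Alb, at 53290 to 136300 CPM over the livers, gave the largest part of them and was not called. Of the 8 only Apoa1 was called, higher in C3 in both sexes. The 7 Kupffer cell markers summed to 465.3 to 597.5 CPM in B6 females, 293.4 to 453 CPM in B6 males, 310.6 to 462 CPM in C3 females and 213.9 to 317.6 CPM in C3 males, and none was at 0 in any library. In C3 females 5 of the 7 were lower than in B6 females (Clec4f, Adgre1, Vsig4, Csf1r and C1qa), in C3 males 3 were lower than in B6 males (Adgre1, Vsig4 and Csf1r), and Vsig4 was higher in females of both strains. The 7 lymphocyte markers summed to 25.6 to 31.8 CPM in B6 females, 15.4 to 25.1 CPM in B6 males, 14.4 to 25.6 CPM in C3 females and 9.02 to 11.2 CPM in C3 males, most of it from Ptprc, which was higher in C3 females and in B6 males than in C3 males. The 7 stellate cell markers summed to 566.1 to 690.1 CPM in B6 females and 446.9 to 515.3 CPM in B6 males, and to 471.4 to 516.6 CPM in C3 females and 391.2 to 450.2 CPM in C3 males, with every female above every male of the same strain, although no single marker was called. The 7 endothelial markers summed to 420.1 to 529.1 CPM in B6 females, 345.6 to 409.4 CPM in B6 males, 394.1 to 483.7 CPM in C3 females and 351.5 to 418.4 CPM in C3 males, without overlap between the B6 sexes, and Lyve1 was lower in C3 females than in B6 females. The cholangiocyte marker Sox9 was lower in females of both strains and higher in C3 females than in B6 females. The part of these cell types in the differences below was not tested. The summed markers of adipocytes, skeletal muscle, exocrine pancreas and red blood cells stayed at or below 2.82 CPM in every library. In bulk liver, fewer cells of a type and less RNA per cell cannot be told apart.

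Per unit length, Acadm had the highest mean level of the set over the 20 livers, 367.5 TPM, followed by Ehhadh at 282.1, Cpt1a at 183.2, Acadl at 137.5 and Cpt2 at 106.1 TPM. These 5 genes lay between the 91.7th and 97.4th percentile of all tested genes, and each varied between 1.46-fold and 2.45-fold from its lowest to its highest liver. Vnn1 at 26.5 TPM, Fgf21 at 12.5 TPM and Pdk4 at 10.8 TPM were far less abundant and far more variable. Fgf21 spanned 0.388 to 38.4 TPM, a 99.1-fold range, Vnn1 spanned 0.933 to 71.4 TPM, a 76.5-fold range, and Pdk4 varied 4.67-fold. Neighbours in this order overlapped across livers except Cpt2 and Vnn1.

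**Figure D1:**
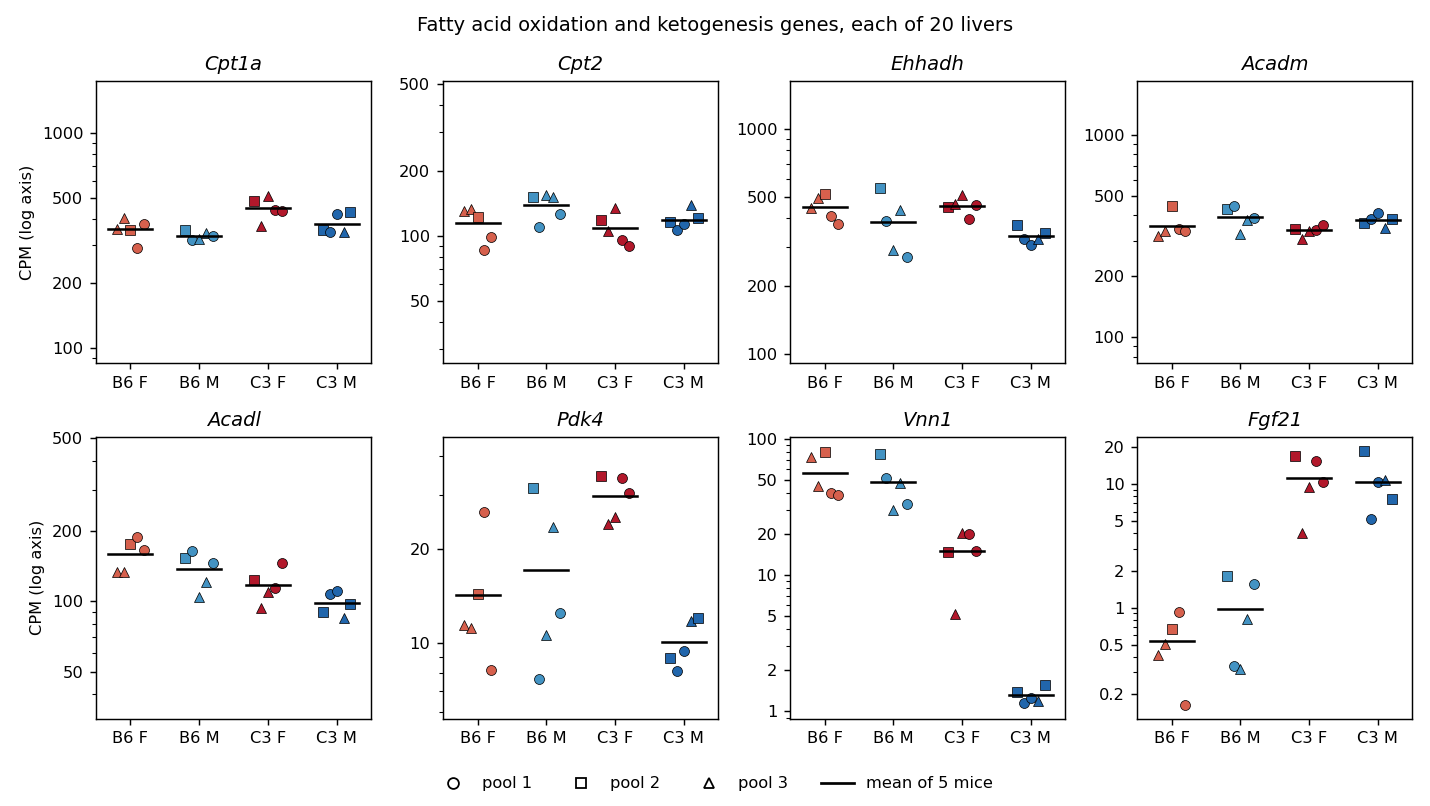
CPM (log axis) of each of the 8 genes in each of the 20 livers, with the 4 groups along the x axis; points are single mice coloured by group, with the marker giving the pool, and horizontal lines are group means. Vnn1 falls to between 1.15 and 1.57 CPM in C3 males, and Fgf21 separates the C3 livers (4.01 to 18.8 CPM) from the B6 livers (0.163 to 1.80 CPM). For Cpt1a, Cpt2 and Acadm the groups overlap in every comparison between the sexes of a strain or the strains of a sex.

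Differences were called at an adjusted p under 0.001 and an absolute log2 fold change over 0.5, the thresholds of the study, in an edgeR quasi-likelihood fit of group and pool over all genes. Between B6 females and B6 males, 0 of the 8 genes were called, where 6.34% of all tested genes were (3.23% higher and 3.12% lower in females), and for 0 of 8 did the 5 females and 5 males not overlap, where 10.9% of tested genes did so. At an unadjusted p under 0.05, 2 of the 8 stood in edgeR (Cpt2 and Acadl), where 44.4% of all tested genes did, and DESeq2 and limma also called 0. Between C3 females and C3 males, Pdk4 and Vnn1 were called, 2 of 8 beside 6.9% of all tested genes, and both were higher in females, a direction that held 4.11% of tested genes, with 2.79% lower. The groups did not overlap for Ehhadh, Pdk4 and Vnn1, 3 of 8 beside 13.1%.

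Between the strains, 2 of the 8 were called in females, beside 9.4% of tested genes: Vnn1 was lower (4.77% of tested genes were) and Fgf21 higher in C3 (4.63% were). In males 3 of 8 were called, beside 9.64% of tested genes: Acadl and Vnn1 were lower (5.55% were) and Fgf21 higher in C3 (4.09% were). The livers of the strains did not overlap for Vnn1 and Fgf21 in females, 2 of 8 beside 12.8% of tested genes, and for the same genes in males, 2 of 8 beside 15.1%. The sex-by-strain interaction, which compares the female-to-male ratio of C3 with that of B6, was called for Vnn1, 1 of 8 beside 0.401% of tested genes (0.27% in its direction and 0.131% in the other). The comparisons share libraries, so their counts are not independent. C3 reads were aligned to the mm9 reference, which derives from a B6 mouse, and the effect of this on counts in C3 was not tested.

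**Figure D2:**
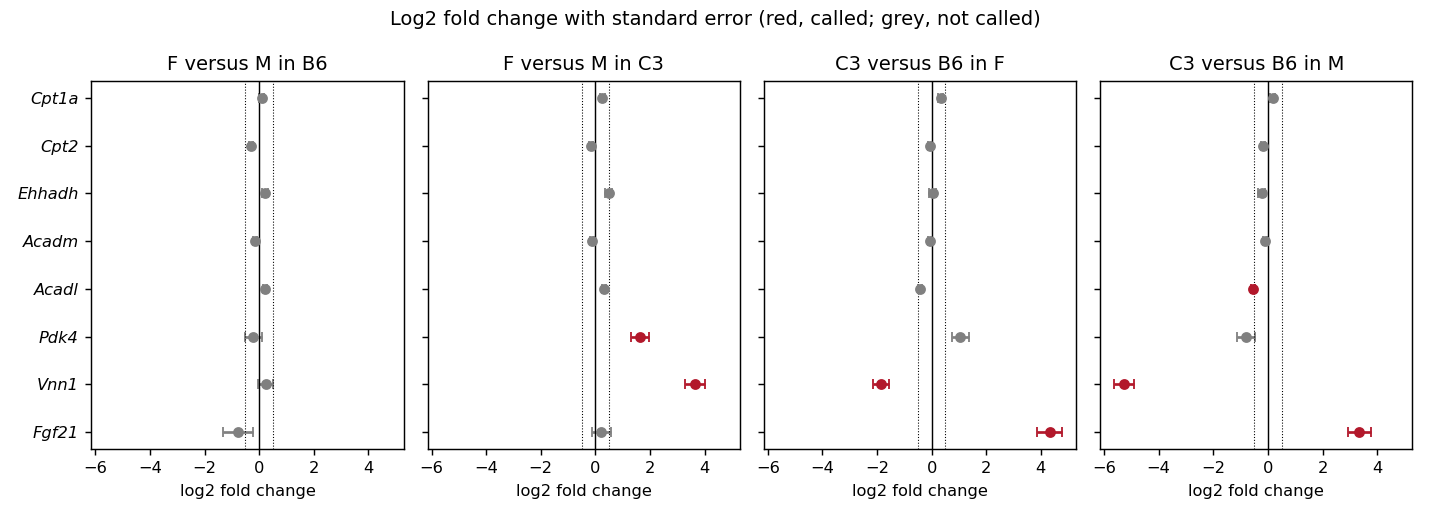
Log2 fold changes (x axis) with their standard errors for the 8 genes in the 4 comparisons of 5 against 5 livers. Red marks called genes, grey the others, and dotted lines stand at 0.5 on either side of 0. Vnn1 and Fgf21 stand far from 0 between strains, and Pdk4 and Vnn1 between the sexes of C3.

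Neither Cpt1a nor Cpt2, the acyltransferases of the carnitine shuttle, was called in any comparison. Cpt1a (gene ID 12894, chr19:3323301-3385733, plus strand, mm9) encodes the liver form of the outer membrane enzyme that commits acyl groups to mitochondria, and Cpt2 (12896, chr4:107576587-107596194, minus strand) the inner membrane enzyme that hands them back to CoA. Cpt1a lay between 290.6 and 403.2 CPM in B6 females, 316.8 and 354.5 CPM in B6 males, 368.2 and 510.9 CPM in C3 females, and 345.7 and 427.6 CPM in C3 males. The highest group mean was 447 ± 54.7 CPM (SD, n = 5) in C3 females and the lowest 333 ± 15.6 CPM in B6 males. No Cpt1a difference passed the call, and the log2 difference was 0.33 ± 0.09 (SE) between C3 and B6 females (adjusted p = 0.0105) and 0.25 between C3 females and males (adjusted p = 0.0428). Cpt2 ranged from 86.4 to 155 CPM, with a log2 difference between B6 females and males of -0.29 ± 0.07 (adjusted p = 0.00364) that was not called either.

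Acadm (11364, chr3:153585317-153607607, minus strand) and Acadl (11363, chr1:66877413-66909883, minus strand) encode the medium-chain and long-chain acyl-CoA dehydrogenases. Acadm was the steadiest member, between 307 and 446.5 CPM over the 20 livers, with log2 differences from -0.15 to -0.07 in the 4 comparisons and none called.

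Acadl was lower in C3 males than in B6 males. In B6 males it stood at 153, 163.5, 104.4, 121.4 and 146.1 CPM, and in C3 males at 90.4, 107.7, 110.9, 84.6 and 97.5 CPM. The C3 values lay below all B6 values except that of 1 B6 male, which overlapped them. The group means were 138 ± 24.2 and 98.2 ± 11.2 CPM (SD, n = 5), a log2 difference of -0.54 ± 0.07 (1.45-fold lower, adjusted p = 1.33e-05), and within the pools it lay between -0.70 and -0.41. In females Acadl stood at 132.9, 133.6, 176.2, 188.5 and 166.4 CPM in B6 and at 123.9, 93.7, 109.5, 113.5 and 146 CPM in C3. Here 1 C3 female overlapped B6, and the log2 difference of -0.44 ± 0.07 (adjusted p = 0.000113, -0.51 to -0.39 within pools) stayed under the minimum fold. The difference in males was no longer called without the pool term (-0.49, adjusted p = 0.0163) or when tested against a log2 change of 0.5 by glmTreat (adjusted p = 0.746), and the one in females was called by limma on log2 TPM at both pseudocounts (-0.51).

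Ehhadh (74147, chr16:21761358-21787907, minus strand) encodes the bifunctional enzyme of peroxisomal beta-oxidation. It lay between 396.4 and 507.5 CPM in C3 females and between 305.2 and 372.4 CPM in C3 males, so that these groups did not overlap. The log2 difference of 0.48 ± 0.12 (0.32 to 0.58 within pools) was under the minimum fold, and its adjusted p of 0.00506 was over the limit. In B6 the sexes overlapped, with 376.2 to 512.4 CPM in females and 270.9 to 547.9 CPM in males, and the interaction (0.26, adjusted p = 0.485) was not called.

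Pdk4 (27273, chr6:5433351-5446278, minus strand) encodes a kinase that inactivates pyruvate dehydrogenase and so spares glucose when fat is burned. In C3 females it stood at 34.3, 24.2, 25.4, 33.9 and 30.3 CPM, and in C3 males at 8.94, 8.15, 9.41, 11.8 and 12.03 CPM. Every C3 female was above every C3 male, and the means of 29.6 ± 4.69 and 10.1 ± 1.75 CPM (SD, n = 5) differed 3.09-fold (log2 1.63 ± 0.32, adjusted p = 0.000817, 1.07 to 1.86 within pools). In B6 the females stood at 11.4, 11.2, 14.4, 26.3 and 8.20 CPM and the males at 31.6, 7.68, 10.6, 23.7 and 12.5 CPM. These overlapped widely (log2 -0.22, adjusted p = 0.624, -1.13 to 0.58 within pools), with the highest values in B6 male 1, B6 female 4 and B6 male 4.

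C3 females had the highest Pdk4 mean of the 4 groups, but neither their difference from B6 females (log2 1.04 ± 0.31, adjusted p = 0.0143) nor the interaction (1.84 ± 0.45, adjusted p = 0.0282, 1.28 to 2.85 within pools) passed the call. The call between the C3 sexes stood close to the limit: it was lost without B6 female 1 or 2, B6 male 5, or any single C3 mouse, with log2 differences of 1.54 to 1.80 and adjusted p of 0.00101 to 0.00272. It was also lost with glmTreat (adjusted p = 0.0102) and without the pool term (0.002785). Without B6 female 4, Pdk4 was called between C3 and B6 females as well (log2 1.48, adjusted p = 0.000343). Of the 14 clock genes, listed because Pdk4 and Fgf21 vary with feeding and time of day, Bhlhe41 was called between the C3 sexes, 1 of 14 (7.14%) beside 6.9% of all tested genes. Of the 14, 7 had an unadjusted p under 0.05, as did 49% of all tested genes, and DESeq2 called Per2 and Cry1 lower in females as well (named after their values were seen). Their part in the Pdk4 difference was not tested.

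Vnn1 (22361, chr10:23614494-23625149, plus strand) encodes vanin-1, a membrane-bound pantetheinase that releases pantothenate and cysteamine and is a known PPARalpha target in liver. In B6 females it stood at 74.4, 45.5, 80.2, 40.4 and 38.95 CPM and in B6 males at 77.4, 51.7, 30.25, 47.9 and 33.1 CPM. In C3 females it stood at 14.9, 5.17, 20.3, 20.2 and 15.0 CPM, and in C3 males at 1.39, 1.15, 1.26, 1.19 and 1.57 CPM. The sexes of B6 overlapped throughout, whereas the C3 females lay below all B6 livers, and the C3 males below all C3 females.

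The group means were 55.9 ± 19.8 and 48.1 ± 18.8 CPM in B6 females and males, and 15.1 ± 6.17 and 1.31 ± 0.171 CPM in C3 females and males (SD, n = 5). The C3 male level rested on 36 to 50 counts per library. In C3, females were 12.5-fold above males (log2 3.65 ± 0.37, adjusted p = 5.61e-07, 3.05 to 3.80 within pools), against a log2 difference of 0.24 in B6 (adjusted p = 0.531). The strain difference was 3.60-fold in females (log2 -1.85 ± 0.29, adjusted p = 6.27e-05, -2.50 to -1.18 within pools) and 38.3-fold in males (log2 -5.26 ± 0.37, adjusted p = 1.84e-09, -5.66 to -4.94 within pools).

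The female-to-male ratio of Vnn1 in C3 exceeded that in B6 10.6-fold (log2 interaction 3.41 ± 0.46, adjusted p = 0.000255, 2.44 to 3.86 within pools). This call was lost without B6 male 1, the highest B6 male (log2 3.24, adjusted p = 0.00124), without C3 male 4 (3.44, adjusted p = 0.00103), and with limma on log2(TPM + 1) (2.42, adjusted p = 0.00172). The strain difference in females was not called when the fit held these groups alone (-1.86, adjusted p = 0.00346).

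The neighbouring pantetheinase gene Vnn3 ends 24845 bases before the start of Vnn1. Vnn3 was called in 4 comparisons, of which Vnn1 was called in 3. The Vnn3 means were 98.0 and 60.5 CPM in B6 females and males, and 44.0 and 19.2 CPM in C3 females and males. It was higher in females in both strains (log2 0.70, adjusted p = 0.000181 in B6 and 1.27, adjusted p = 4.34e-07 in C3) and lower in C3 in both sexes (-1.14, adjusted p = 4.84e-07 in females and -1.71, adjusted p = 3.51e-09 in males), but its interaction of 0.57 was not called (adjusted p = 0.0825). The sex difference of Vnn3 in B6, where Vnn1 was not called, was lost under glmTreat (adjusted p = 0.242), without the pool term (0.00198) and with only the B6 groups fitted (0.00132). Since read pairs mapping to several places were not counted, the levels of such related genes are uncertain.

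Fgf21 (56636, chr7:52869260-52870860, minus strand, mm9) encodes the endocrine growth factor that the liver secretes in fasting, ketogenic and protein-poor states. In B6 females it stood at 0.413, 0.503, 0.674, 0.922 and 0.163 CPM and in B6 males at 1.80, 0.337, 0.318, 0.814 and 1.57 CPM. In C3 females it stood at 17.0, 4.01, 9.45, 15.5 and 10.5 CPM and in C3 males at 18.8, 5.21, 10.4, 10.8 and 7.57 CPM. The lowest C3 liver, female 2, was above the highest B6 liver, male 1, and the sexes overlapped within each strain.

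Fgf21 was 20.0-fold higher in C3 than in B6 females (11.3 ± 5.17 against 0.535 ± 0.284 CPM, SD, n = 5; log2 4.32 ± 0.45, adjusted p = 4.59e-07) and 10.1-fold higher in males (10.6 ± 5.14 against 0.966 ± 0.687 CPM; log2 3.34 ± 0.42, adjusted p = 5.73e-06). The log2 difference within pools was 3.61 to 4.80 in females, and in males it was 2.70 to 4.26. The B6 values rested on 6 to 56 counts per library and the C3 values on 181 to 517. Fgf21 was not called between the sexes (log2 -0.77 ± 0.54, adjusted p = 0.284 in B6 and 0.22 ± 0.35, adjusted p = 0.645 in C3) or in the interaction (0.98 ± 0.64, adjusted p = 0.484). Of the clock genes, 0 of 14 were called between strains in either sex by edgeR, with 2 in females and 6 in males at an unadjusted p under 0.05, where 41.9% and 44.3% of all tested genes were. The median log2 difference of the 14, C3 over B6, was 0.07 in females and 0.44 in males, against 0.02 and 0.01 over all tested genes. DESeq2 called 0 in females and 2 in males, Nr1d2 and Bhlhe41, both higher in C3, and limma 0.

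The genome around Fgf21 held further strain differences. Of 16 annotated genes within 100 kb, 10 were tested and 4 were called between strains in each sex. Over all tested genes 9.4% were called in females and 9.64% in males. Of the 4, 0610005C13Rik (log2 -0.98 in females and -1.01 in males) and Sphk2 (-0.71 and -0.58), a sphingosine kinase, were lower in C3. Car11 (1.70 and 2.01), a carbonic anhydrase-related gene, and Fut1 were higher. Fut1, a fucosyltransferase gene on the opposite strand, starts 2116 bases from Fgf21. It had 0 to 4 counts in each B6 library and 8 to 77 in each C3 library (means of 0.0361 and 0.0408 CPM in B6 females and males, 1.04 and 0.861 CPM in C3 females and males, adjusted p = 7.86e-07 in females and 5.04e-06 in males). The clock output gene Dbp, also in this interval, was not called by edgeR (log2 0.47, adjusted p = 0.5201 in females and 2.23, adjusted p = 0.00557 in males). The neighbours were chosen by position, and Fut1 was singled out after its values were seen.

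**Figure D3:**
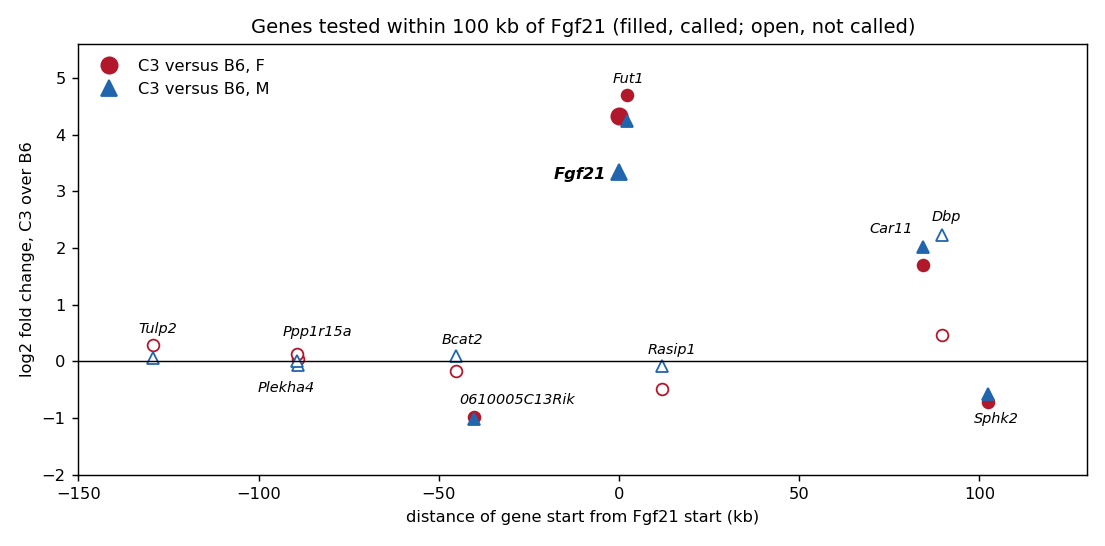
Log2 fold change of C3 over B6 (y axis) for Fgf21 and the 10 tested genes within 100 kb of it, by the distance of each gene start from the Fgf21 start in kb (x axis), in females and males; filled points are called, open points are not. Fgf21 and Fut1, whose starts lie 2116 bases apart, have the highest values in the interval.

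Vnn3 was the only called neighbour of Vnn1 among 2 tested. Asb4, 50330 bases from Pdk4 and its only tested neighbour, was higher in C3 females than B6 females (log2 1.07, adjusted p = 0.000136) with no call in males. Around Cpt1a, Cpt2, Ehhadh, Acadm and Acadl, 0 of 4, 3, 2, 3 and 1 tested neighbours were called by edgeR in any comparison of 5 against 5 livers. Of all tested genes, 6.34% to 9.64% were called in such a comparison.

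The 250 bases before the RefSeq start of Fgf21, Fut1 and Pdk4 (GRCm38.p6, not the mm9 build of the tables) are shown because Fgf21 and Fut1 start close to each other and differed between strains together, and Pdk4 because it had the highest r with Fgf21 of the other members (given below). Each run reads from 5' to 3' in the direction of its gene and ends at the base before the start. Capitals mark matches to the E-box (searched as CACGTG), a C/EBP-ATF element (searched as TTGCATCA) and the TATA box (searched as TATAAA), on both strands, motifs chosen after the sequences were seen.
Fgf21: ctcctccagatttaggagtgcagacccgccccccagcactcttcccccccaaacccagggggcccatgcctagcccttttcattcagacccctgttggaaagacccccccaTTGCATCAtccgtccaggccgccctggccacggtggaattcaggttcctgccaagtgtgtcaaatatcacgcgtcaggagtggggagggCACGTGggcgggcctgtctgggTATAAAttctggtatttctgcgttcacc
Fut1: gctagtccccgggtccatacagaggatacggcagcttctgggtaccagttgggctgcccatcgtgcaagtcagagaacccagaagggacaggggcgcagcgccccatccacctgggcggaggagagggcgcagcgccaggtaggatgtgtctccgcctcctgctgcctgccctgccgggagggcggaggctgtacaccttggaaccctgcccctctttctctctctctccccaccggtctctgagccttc
Pdk4: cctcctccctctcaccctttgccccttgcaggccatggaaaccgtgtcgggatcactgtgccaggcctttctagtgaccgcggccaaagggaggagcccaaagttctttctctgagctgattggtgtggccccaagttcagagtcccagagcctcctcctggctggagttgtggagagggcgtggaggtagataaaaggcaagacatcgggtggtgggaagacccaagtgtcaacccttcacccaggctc

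These runs cover chr7:45615491-45615740 on the minus strand for Fgf21, chr7:45617356-45617605 on the plus strand for Fut1 and chr6:5496279-5496528 on the minus strand for Pdk4. Upstream of Fgf21 the E-box, a palindrome, lay at positions -50 to -45 from the start, the C/EBP-ATF element at -139 to -132 and the TATA box at -28 to -23, and the runs of Fut1 and Pdk4 held no match. Among 32851 promoters of the same length, 6.02% held the E-box, 0.791% the C/EBP-ATF element and 12.4% the TATA box. The core site of nuclear receptors, AGGTCA, was found in the 300-base windows of Cpt1a (-94 to -89) and Acadm (-249 to -244), 2 of the 7 members with a window, and in 16.3% of all windows. The site repeated with 1 base between, to which PPARalpha binds, was found in 0 of 7 and in 0.0396% of windows, and 0 of 7 and 0.381% with any base at the fourth place of each site. A match is a description of letters and not of binding.

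The wider pathway was described with 11 lists of related genes, 149 genes of which 146 were tested. Over all lists 10 genes were higher and 18 lower in B6 females than in B6 males (19.2% called, beside 6.34% of all tested genes), 14 higher and 8 lower in C3 females than in C3 males (15.1%, beside 6.9%), 9 higher and 5 lower in C3 than in B6 females (9.59%, beside 9.4%), and 4 higher and 14 lower in C3 than in B6 males (12.3%, beside 9.64%). In the interaction 2 were called (1.37%, beside 0.401%).

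**Figure D4:**
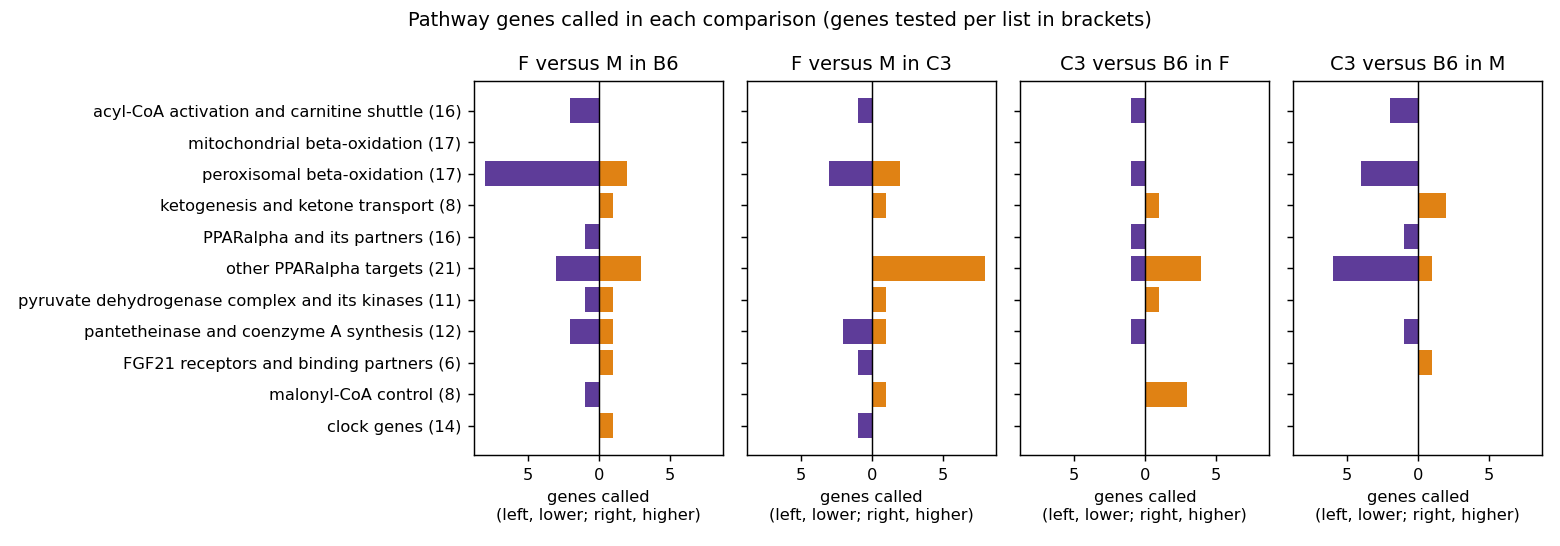
Number of genes called lower (left of 0) and higher (right of 0) in each comparison for each of the 11 pathway lists, with the number of genes tested per list in brackets. Peroxisomal beta-oxidation has 8 genes lower in B6 females than in B6 males. The mitochondrial beta-oxidation list has none called in any comparison. The lists leave out the members, of which Acadl was called between strains in males.

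The mitochondrial beta-oxidation list, which leaves out the 8 members, had 0 of 17 genes called in any comparison by edgeR, DESeq2 and limma alike. Among the members, Acadl, an enzyme of this pathway, was called lower in C3 than in B6 males, as given above. In edgeR, 6, 4, 7, 6 and 1 of the 17 listed genes had an unadjusted p under 0.05 in the B6 sexes, the C3 sexes, the strains in females, the strains in males and the interaction. Over all tested genes that share was 44.4%, 49%, 41.9%, 44.3% and 16.1%. Their median log2 differences were -0.07, -0.03, 0.13, 0.06 and 0.06, against 0.00, 0.01, 0.02, 0.01 and 0.01 over all tested genes. For acyl-CoA activation and the carnitine shuttle, 0 to 2 of 16 were called in a comparison and all of these were lower. This was at most 12.5%, where 0.401% to 9.64% of all tested genes were called. Acsm3, which activates medium-chain fatty acids, was lower in B6 females than in B6 males (log2 -0.65, adjusted p = 1.36e-05) and lower in C3 than in B6 in females (-0.63, adjusted p = 1.20e-05) and males (-0.92, adjusted p = 1.09e-07). Acsl1, the main long-chain acyl-CoA synthetase of liver, was lower in B6 females than in B6 males (-0.53, adjusted p = 5.60e-05). This call was lost without B6 female 5 (-0.49), under upper quartile scaling (-0.46), with limma at both pseudocounts (-0.41) and under glmTreat.

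Slc25a20, the carrier that moves acylcarnitine across the inner membrane between Cpt1a and Cpt2, was lower in C3 than in B6 males (-0.51, adjusted p = 4.59e-05), under the minimum fold without B6 male 5, C3 female 2 or C3 male 1 or 4 (-0.50 to -0.47). Acsl6, a long-chain acyl-CoA synthetase, had 0 or 1 count in each C3 female and was at least 6.2-fold lower there than in C3 males, against a floor of 3 counts per library.

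Peroxisomal beta-oxidation was the list with the most calls between the sexes of B6, 2 higher and 8 lower in females out of 17. This was 58.8%, beside 6.34% of all tested genes, with a median log2 of -0.41 against 0.00. Under upper quartile scaling or limma on log2(TPM + 1), 5 were lower. In C3 the same list had 2 higher and 3 lower in females (29.4%, beside 6.9% of all tested genes). Its median there of -0.06, against 0.01 over all tested genes, turned to 0.00 or above under upper quartile scaling and limma. Scp2, which carries the thiolase that cleaves branched-chain substrates, was lower in females in B6 (log2 -1.55, adjusted p = 6.05e-10) and in C3 (-1.53, adjusted p = 7.70e-10). Abcd2, a transporter of very long-chain acyl-CoA, was higher in females, with means of 121.5 against 8.78 CPM in B6 (log2 3.95, adjusted p = 4.38e-07) and 162.8 against 9.82 CPM in C3 (4.29, adjusted p = 2.24e-07).

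Between the strains 1 of these 17 genes was called in females (5.88%, beside 9.4% of all tested genes). In males 4 were called (23.5%, beside 9.64%), and in both sexes all were lower in C3. Acaa1b, a peroxisomal thiolase with a close copy in Acaa1a, was lower in B6 females than in B6 males (-0.99, adjusted p = 1.09e-05) and lower in C3 males than in B6 males (-1.23, adjusted p = 5.42e-07).

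For ketogenesis and ketone transport, the called genes were monocarboxylate transporters. Slc16a7 was higher in females in B6 (0.93, adjusted p = 1.34e-05) and C3 (1.00, adjusted p = 8.71e-06), both lost without the pool term (adjusted p = 0.00265 and 0.00114) and under glmTreat (0.007 and 0.00267). Slc16a6, a transporter of beta-hydroxybutyrate out of the liver, was higher in C3 in females (1.23, adjusted p = 0.000358) and males (1.29, adjusted p = 0.000254). In females this was not called without B6 female 1, 3 or 4 or C3 female 1, 2 or 4, and in males without B6 male 2 or 4 or C3 male 4 (adjusted p up to 0.00197). Slc16a1 was higher in C3 males than in B6 males (0.56, adjusted p = 1.05e-06).

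Ppara itself was not called in any comparison, with means of 268.7, 282.6, 342.8 and 281.8 CPM in B6 females, B6 males, C3 females and C3 males. Among the 16 genes of PPARalpha and its partners, Pparg was the only one called by edgeR. DESeq2 also called the coactivator gene Ppargc1a, named after its values were seen, higher in females of B6 (0.71, adjusted p = 0.000421) and C3 (0.70, adjusted p = 0.000585), where edgeR gave an adjusted p of 0.00397 and 0.00383, and the interaction of Pparg (2.498, adjusted p = 6.67e-06, 0.00544 in edgeR). The receptor Pparg, best known from fat cells, had means of 8.62 and 18.4 CPM in B6 females and males and of 0.408 and 0.166 CPM in C3 females and males, lower in C3 by log2 -4.29 in females (adjusted p = 3.48e-10) and -6.82 in males (adjusted p = 3.24e-12), and lower in B6 females than in B6 males (-1.15, adjusted p = 0.000154). The difference between the B6 sexes was lost with limma on log2(TPM + 0.1) (adjusted p = 0.0014), under glmTreat (0.009), without the pool term (0.00215) and with only the B6 groups fitted (0.00318). The 6 adipocyte markers summed to between 0 and 2.82 CPM in all livers.

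Among 21 other PPARalpha targets, 8 were higher and 0 lower in C3 females than in C3 males (38.1%, beside 6.9% of all tested genes). Between strains in males, 1 was higher and 6 lower in C3 (33.3%, beside 9.64%). The median log2 differences were 0.41 and -0.50, against 0.01 over all tested genes in each. In B6, 3 were higher and 3 lower in females (28.6%, beside 6.34%). This split became 4 and 2 under upper quartile scaling and 5 and 2 with limma on log2(TPM + 1). Between the strains in females 4 were higher and 1 lower in C3 (23.8%, beside 9.4%). The fatty acid hydroxylase genes Cyp4a10, Cyp4a14 and Cyp4a31 and the peroxisomal thioesterase gene Acot3, whose close relatives make their counts uncertain, had the largest changes. Cyp4a14 had means of 680 CPM in B6 females and 114.2 CPM in B6 males, a log2 difference of 2.91 that edgeR did not call (adjusted p = 0.0017) but DESeq2 (0.000164) and limma at both pseudocounts did, as did edgeR without B6 male 1 or C3 female 1. It was higher in females of C3 (log2 4.92, adjusted p = 8.95e-05) and lower in C3 than in B6 in females (-3.90, adjusted p = 0.000103) and males (-5.92, adjusted p = 8.17e-06). Acot3 was higher in females of both strains (4.51, adjusted p = 1.74e-06 in B6 and 5.38, adjusted p = 4.33e-07 in C3).

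Cyp4a10 was higher in C3 females than in C3 males (5.05, adjusted p = 1.76e-07) and lower in C3 than in B6 males (-4.66, adjusted p = 1.58e-07), with an interaction of 3.71 (adjusted p = 0.000854) that was kept in only 3 of 20 fits with 1 mouse left out, those without B6 male 3, B6 male 5 or C3 male 3 (adjusted p up to 0.00329 in the others). Cyp4a31 was higher in females of both strains (1.79, adjusted p = 0.000107 in B6 and 3.84, adjusted p = 3.17e-07 in C3), and lower in C3 than in B6 males (-2.04, adjusted p = 0.000810), the last kept in 6 of these 20 fits (without B6 female 1, 3 or 5, B6 male 3, or C3 female 3 or 4). Cd36, a fatty acid uptake receptor named here after its values were seen, was the other gene called in the interaction (2.14, adjusted p = 0.00043), with means of 134.9, 143.6, 95.1 and 23.1 CPM in B6 females, B6 males, C3 females and C3 males. It was lost without B6 female 1 or 2, B6 male 1 or 2, C3 female 3 or 4, or C3 male 1 or 4 (adjusted p up to 0.00182).

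Around Pdk4, the pyruvate dehydrogenase list of 11 genes had 0 to 2 calls per comparison. This was at most 18.2%, between the B6 sexes, beside 6.34% of all tested genes there. Pdp1, a phosphatase that reverses the action of the kinases, was higher in females of B6 (0.69, adjusted p = 0.000287) and C3 (0.85, adjusted p = 3.72e-05), the B6 call being lost without B6 female 3 or 5 or B6 male 2, 3 or 5 (adjusted p up to 0.0013). Pdk1, another kinase of the complex, was higher in C3 females than in B6 females (0.73, adjusted p = 3.47e-05). Pdhx, a structural subunit, was lower in B6 females than in B6 males (-0.50, adjusted p = 7.54e-07), with overlapping groups, and under the minimum fold without B6 female 2 or 4 or B6 male 1, 3 or 5 (-0.49 to -0.48).

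Around Vnn1, 12 genes of pantetheinase and coenzyme A metabolism were tested and, beside Vnn3, the hydrolases Nudt7 and Nudt8 were called. Nudt7, which degrades coenzyme A in peroxisomes, was lower in females in B6 (-1.43, adjusted p = 3.86e-07) and C3 (-2.03, adjusted p = 6.12e-09). Nudt8, its mitochondrial counterpart, was lower in females by a smaller amount (-0.57, adjusted p = 4.39e-06 in B6 and -0.53, adjusted p = 1.19e-05 in C3, the latter -0.50 and not called without C3 male 3).

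Around Fgf21, 6 receptor and binding partner genes were tested. Klb, the co-receptor that FGF21 needs, was higher in B6 females than in B6 males (0.67, adjusted p = 0.000587) with overlapping groups. This call was lost without B6 female 1, 2, 3 or 4 or B6 male 2, 3 or 5 (adjusted p up to 0.00256). In C3 its log2 difference of 0.56 was not called by edgeR (adjusted p = 0.0026) but was by DESeq2 (0.54, adjusted p = 0.000388). Fgfr1 was lower in C3 females than in C3 males (-0.84, adjusted p = 0.000418), lost without C3 female 3 or 5 or C3 male 1 or 4 (adjusted p up to 0.00364). In B6 the Fgfr1 difference had the same direction but was not called (-0.56, adjusted p = 0.00579). In the interaction, 0 of the 6 genes had an unadjusted p under 0.05, beside 16.1% of all tested genes. Fgfr4, the main receptor of this family in hepatocytes, was higher in C3 than in B6 males (0.54, adjusted p = 2.81e-06), though 0.49 without C3 male 5, and its log2 difference between strains in females was 0.49 (adjusted p = 7.93e-06, under the minimum fold).

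Malonyl-CoA, the product of acetyl-CoA carboxylase, inhibits CPT1A. Of 8 genes that control it, 3 were higher in C3 females than in B6 females (37.5%, beside 4.63% of all tested genes). These were Acaca, a carboxylase (0.82, adjusted p = 0.000135), and Prkaa2 (0.63, adjusted p = 0.000105) and Prkab1 (0.65, adjusted p = 1.24e-06), subunits of the kinase AMPK that inhibits it. All 3 calls were lost under glmTreat (adjusted p = 0.0512, 0.3375 and 0.0919). Between strains in males 0 of the 8 were called, beside 9.64% of all tested genes. Between the sexes 1 of 8 was called in each strain (12.5%, beside 6.34% in B6 and 6.9% in C3). Prkab1 was also higher in C3 females than in C3 males (0.62, adjusted p = 5.33e-06). Prkaa2 was lower in B6 females than in B6 males (-0.52, adjusted p = 0.000773), kept in 6 of the 20 fits with 1 mouse left out (without B6 female 3, B6 male 1, C3 female 4 or 5, or C3 male 2 or 3). In the clock list, Nr1d2 was higher in B6 females than in B6 males (0.82, adjusted p = 0.000604) and Bhlhe41 lower in C3 females than in C3 males (-2.40, adjusted p = 0.000586). The Nr1d2 call was lost without any B6 mouse other than B6 male 4, and the Bhlhe41 call without any C3 mouse other than C3 male 2 or 4 (adjusted p up to 0.00315).

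Of the 58 calls of the named list genes and of Fut1, 32 were lost under glmTreat, 21 without the pool term, 15 with only the groups compared, 14 and 11 with limma on log2 TPM at pseudocounts of 1 and 0.1, 5 under upper quartile scaling and 1 without the filter on low counts. Beyond those given above, the calls lost without the pool term were those of Acaa1b in both its comparisons, Pdp1, Pdhx, Nudt8, Klb, Prkaa2 and Nr1d2 between the B6 sexes, Nudt8 and Prkab1 between the C3 sexes, Slc16a6, Prkaa2 and Prkab1 between strains in females, Slc25a20, Slc16a6 and Slc16a1 between strains in males, and the Cyp4a10 interaction. With only the groups compared, Acaca, Pdk1 and Slc16a6 were lost between strains in females, Slc16a6 and Cyp4a31 between strains in males, Pdp1, Fgfr1 and Bhlhe41 between the C3 sexes, and Cyp4a31, Pdp1, Pdhx, Klb and Prkaa2 between the B6 sexes. The sex differences of Scp2, Abcd2, Acot3 and Nudt7 and the strain differences of Pparg and Cyp4a14 were lost under none of these settings.

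Within groups, most pairs of members were positively correlated from mouse to mouse. After group and pool means were removed from log2 CPM, 25 of the 28 pairs of members had a Pearson r above 0 across the 20 livers and 6 were above 0.5, with a median of 0.283 and a range of -0.158 to 0.747. The highest was that of Cpt1a and Cpt2 (0.747), followed by Acadm and Acadl (0.672), Pdk4 and Fgf21 (0.639), Ehhadh and Acadl (0.619), Ehhadh and Acadm (0.603), and Cpt2 and Vnn1 (0.531). These r describe the same 20 libraries, whose points share pool and depth, and have no test. With group means alone removed, the r of Cpt2 and Acadl was -0.656 instead of 0.14. Of the 6 pairs above 0.5, Acadm with Acadl (0.767) and Pdk4 with Fgf21 (0.681) then stayed above it. The others fell below: Cpt1a with Cpt2 (0.493), Ehhadh with Acadm (0.413), Cpt2 with Vnn1 (0.246) and Ehhadh with Acadl (0.0662). For Cpt2 and Vnn1 the Spearman rho with pool removed was 0.287.

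**Figure D5:**
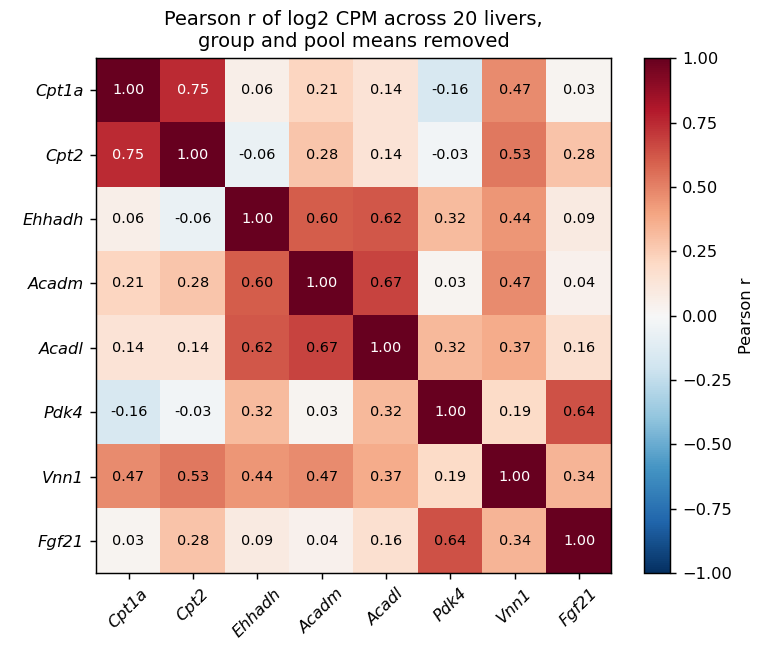
Pearson r between each pair of the 8 genes over 20 livers, from log2 CPM after removal of group and pool means; the colour scale gives r. Most cells are above 0, and Cpt1a with Cpt2 has the highest r, 0.747.

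Some mice stood at the same end of their group in CPM for several members. B6 male 1, the only B6 male of pool 2, had the highest Vnn1, Pdk4, Ehhadh and Fgf21 of its group. After group and pool means were removed, B6 male 5 had a higher log2 Fgf21 value (0.998) than B6 male 1 (0.489). C3 female 2 had the lowest Vnn1, Fgf21, Pdk4 and Cpt1a of its group, before and after that removal. Over all tested genes and the same residuals, the genes most like each member were Slc27a2 (r = 0.906), Eci2 (0.846) and Brap (0.841) for Cpt1a, and Slc25a20 (0.903), Mup19 (0.893, from a family of near-identical genes) and Pxmp4 (0.851) for Cpt2. For Ehhadh they were Cyp4a14 (0.885), Hamp2 (0.877) and Elovl5 (0.867). For Acadm they were Aldh6a1 (0.907), Hadh (0.871, 0.285 when pool was not removed) and Tmem106b (0.854). For Acadl they were Kif16b (0.856), Mios (0.819) and Bche (0.807, -0.34 when pool was not removed). For Pdk4 they were Slc26a1 (0.879), Nt5c2 (0.866) and Maoa (0.844), and for Vnn1 Slc23a2 (0.885), Ppwd1 (0.838) and Rnf167 (0.838). For Fgf21 they were Aida (0.826), P3h4 (0.814, 0.32 when pool was not removed) and Tgif1 (0.812).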

How the data were processed

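Liver RNA of 20 mice was sequenced as paired, stranded, ribosomal RNA-depleted libraries. The authors trimmed reads with Cutadapt 1.9.1, aligned them to mm9 with STAR 2.5.1b and counted pairs per RefSeq gene by featureCounts (Subread 1.5.0-p1), leaving out multimapping and multi-overlapping pairs. The deposited counts are raw, and the deposited TPM are scaled by a gene length whose definition is not given in the sources used here. The headers of the symbol and identifier columns are exchanged and were read by content. Groups and pools came from the labels, and 0 columns were left unmapped.

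Counts were fitted in R 4.3.3 with edgeR 4.0.16 (filterByExpr on groups, TMM, quasi-likelihood model of group and pool, all 20 libraries). Benjamini-Hochberg adjustment covered 13704 genes, and calls needed an adjusted p under 0.001 and an absolute log2 fold change over 0.5. Fits were tested on simulated data. Depth, 27370921 to 46835745 counts, limits genes near 3 counts, which covers counting error only. Likeness used log2 CPM with a prior count of 2. Alternatives were DESeq2 1.42.0, limma 3.58.1 on log2 TPM, glmTreat, other scalings, filters, covariates, thresholds and libraries, and each mouse left out in turn. Replicate numbers did not pair the mice. Named genes were the 8 members, the called genes of each list (at most the 4 with the largest change), and the 3 genes most like each member. Some genes of the lists are not reported here, though the list counts include them. Members and lists were chosen with earlier results of these data known. Sequences are from RefSeq, with windows for 7 of the 8 members and none for Vnn1.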

Additional observations from a re-analysis of the deposited data

Results flagged for a closer look

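Acadm in B6 female 3 stood at 446.5 CPM, apart from the other B6 females: its gap to the nearest of them was 0.803 of the range of the group, over the limit of 0.71 for 5 values. This was 1 of 32 groups of 5 examined, and chance gives about 1 in 20. The sex difference of Vnn1 differed between the strains, with a log2 interaction of 3.41 in the test of the difference itself (edgeR, adjusted p = 0.000255).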

How the results depend on the processing

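For the 8 members, 472 fold changes under alternative settings included 460 on the same side of the call, 7 that lost it, 5 that gained it and 0 that changed direction, and among 800 with 1 mouse left out these counts were 784, 15, 1 and 0. For the named genes of the pathway lists and Fut1, 31 in all, 1683 of 1824 stayed, 104 lost the call, 37 gained it and 0 reversed, and with 1 mouse left out 2978, 107, 15 and 0 of 3100. Of the members, 1 was called between the C3 sexes under glmTreat or without the pool term, 1 between strains in females with only those groups fitted, and 0 in the interaction under limma on log2(TPM + 1) or the replicate block (Vnn1 3.34, adjusted p = 0.00113), against 2 at an adjusted p under 0.05. With 1 mouse left out, the member counts ran from 0 to 0 between the B6 sexes, 1 to 2 between the C3 sexes, 2 to 3 and 3 to 3 between strains in females and males, and 0 to 1 in the interaction. Same-numbered mice did not deviate together (mean r from -0.24 to 0.218), and the block changed no other member call but lost 5 of 58 calls of other named genes (Klb and Prkaa2 between the B6 sexes, Bhlhe41 between the C3 sexes, Cyp4a31 between strains in males, and the Cyp4a10 interaction). Over all genes, calls numbered 869, 945, 1288, 1321 and 55 in the B6 sexes, C3 sexes, females, males and interaction. They became 294, 314, 525, 585 and 24 under glmTreat, 421, 482, 815, 881 and 20 without pool, and 1753, 2189, 2143, 2327 and 302 at an adjusted p under 0.05. DESeq2 gave 181 in the interaction, the C3 groups alone 625, no minimum fold 1405 between the B6 sexes, and leaving out B6 male 1, C3 male 4 or C3 female 1 gave 32, 33 and 34 in the interaction. Female-higher calls made up 50.9% in B6 and 59.6% in C3, 64.3% and 70.0% under upper quartile scaling, 68.8% and 73.0% with limma on log2(TPM + 1), 71.6% and 77.4% with a pseudocount of 0.1 (which moved the median of all genes to 0.11 and 0.12), and 62.0% in B6 at an adjusted p under 0.05. The cause of these changes was not tested. Fgf21, at 6 to 56 counts in B6, is the member most limited by depth.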
